A study of Mus musculus with 6 samples.

Results

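The 44 genes described here act in mitosis. They were taken by symbol from the 26264 genes of the count table and cover mitotic cyclins and kinases, the chromosomal passenger complex, the spindle checkpoint, the kinetochore, spindle assembly and cytokinesis. Kinesin motors were to be left out, although Cenpe, which stayed in the set, encodes a kinetochore-bound motor of the kinesin family. All 44 were found, and all 44 were among the 14554 genes that passed the count filter.

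RNA was sequenced in bulk from 6 libraries of adult mouse spinal cord neural stem cells, cultured with EGF and FGF2 and sorted by fluorescence. The mice, on a C57BL6J background, carried PDGFRaGFP, a green fluorescent reporter at Pdgfra, whose product, a receptor for platelet-derived growth factor, is found on oligodendrocyte precursors. The 3 GFP-positive libraries are labelled with genotype PDGFRaGFP/+ and the 3 GFP-negative libraries with PDGFRaGFP/-. The design text describes a sort of cells from the reporter mouse and no second genotype, and genotype as labelled cannot be told apart from the sort. The study asks how such stem cells produce the oligodendrocyte lineage, and GFP-positive cells were set against GFP-negative cells. The labels give no age in weeks, no passage and no statement on pooling of animals. Each title has a number shared by a GFP-positive and a GFP-negative library, called replicates 1, 2 and 3.

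Total counts lay between 36846570 and 45207335 in GFP-positive libraries and between 31067850 and 32869705 in GFP-negative libraries. Pdgfra, the gene behind the sort, stood at 237, 205 and 245 CPM (counts scaled to library size) in the GFP-positive set and 8.04, 19.3 and 13.9 CPM in the GFP-negative set. Of 10 precursor markers, 9 were higher in GFP-positive cells, with a summed level of 7646 to 8257 CPM against 5497 to 5754 CPM in GFP-negative cells. Of 7 stem cell markers, 6 were lower, summing to 1727 to 1945 CPM in the GFP-positive set and 5480 to 6202 CPM in GFP-negative cells. Astrocyte markers summed to 467 to 597 CPM in GFP-positive cells and 3483 to 4351 CPM in GFP-negative cells, with 9 of 10 lower. Of 7 ependymal markers 3 were lower, and the 7 summed to 6.21 to 7.996 CPM in GFP-positive cells and 29.96 to 42.0 CPM in GFP-negative cells. The 3 lower ones, Tm4sf1, Foxj1 and Rfx2, averaged 16.3, 13.3 and 6.92 CPM in GFP-negative cells. The other 4 were below 1 CPM in every library, with Tmem212 at 0 everywhere. The 7 microglia markers summed to at most 1.14 CPM in the GFP-positive set and 2.65 CPM in the GFP-negative set, with C1qa at 0 throughout. The 6 endothelial markers reached 2.26 CPM in the GFP-positive and 9.82 CPM in the GFP-negative set, with Cldn5 at 0. The 7 fibroblast and mural markers reached 0.381 CPM in the GFP-positive and 2.13 CPM in the GFP-negative set. The 7 markers of mature oligodendrocytes summed to 27.8 to 42.0 CPM in GFP-positive cells and 18.5 to 20.3 CPM in GFP-negative cells. The 7 neuronal markers summed to 33.2 to 42.1 CPM in GFP-positive cells and 7.83 to 16.2 CPM in GFP-negative cells, with Slc17a6 at 0. The part that precursor, stem cell and astrocyte content plays in the mitosis results was not tested.

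Mitosis starts when Cdk1, bound to cyclin A or B, is freed from inhibitory phosphates by Cdc25 phosphatases. Chromosomes then condense, kinetochores attach to spindle microtubules, and the spindle checkpoint holds back the anaphase-promoting complex (APC/C) until attachment is complete. Destruction of cyclin B and securin by the APC/C starts anaphase, and a central spindle and contractile ring divide the cell. Cultured neural stem cells and oligodendrocyte precursors both divide in response to mitogens, and most mitosis genes are transcribed late in the cell cycle.

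That timing is set in part at the promoter. In mammals many such genes hold a CHR element, TTTGAA or less often TTCGAA, bound by the MuvB core of the DREAM, B-Myb and FoxM1 complexes, and CCAAT boxes bound by NF-Y. RefSeq promoter sequences (build GRCm38.p6, 250 bases before to 50 after the annotated start) matched 36 of the 44 genes, with 42 promoters in all. Aurkb, Ccna2, Cdc25c, Dlgap5, Incenp, Smc4, Spc24 and Tpx2 were not matched. Both strands were searched for TTTGAA and also for TTCGAA, the forms of the CHR, and for CCAAT, and 2 pairs of matches overlapped each other. TTTGAA or TTCGAA stood in 28 of the 42 promoters (66.7%), against 13.6% of 14520 promoters of tested genes and 19.2% of all 32851. CCAAT stood in 35 (83.3%), against 37.8% of tested and 37.4% of all promoters. Both kinds stood together in 26 (61.9%), against 5.67% and 7.53%.

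The stretches shown run from 100 bases before to 30 after the start, on the gene's strand, for the gene with the smallest p of each functional group where a promoter was matched. Cdc25b and Bub3 are shown beside them because they had the set's positive fold changes. Capitals mark complete matches to these motifs on either strand, so that TTCAAA (for the CHR) and ATTGG (for the CCAAT box) are matches on the other strand.
Ccnb2 (chr9:70421525-70421654, minus strand): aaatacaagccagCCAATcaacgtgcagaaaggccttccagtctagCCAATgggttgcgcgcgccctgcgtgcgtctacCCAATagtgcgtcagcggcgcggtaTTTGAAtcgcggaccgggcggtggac
Cdca8 (chr4:124936888-124937017, minus strand): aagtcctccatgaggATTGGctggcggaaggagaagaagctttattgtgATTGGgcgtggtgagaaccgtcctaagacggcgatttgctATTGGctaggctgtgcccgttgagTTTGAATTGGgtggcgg
Cdc20 (chr4:118437314-118437443, minus strand): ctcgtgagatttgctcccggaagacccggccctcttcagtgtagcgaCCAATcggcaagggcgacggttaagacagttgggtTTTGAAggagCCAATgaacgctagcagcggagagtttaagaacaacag
Nuf2 (chr1:169531435-169531564, minus strand): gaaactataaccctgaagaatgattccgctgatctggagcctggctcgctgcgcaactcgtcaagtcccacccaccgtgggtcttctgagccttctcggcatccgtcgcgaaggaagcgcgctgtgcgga
Tacc3 (chr5:33658028-33658157, plus strand): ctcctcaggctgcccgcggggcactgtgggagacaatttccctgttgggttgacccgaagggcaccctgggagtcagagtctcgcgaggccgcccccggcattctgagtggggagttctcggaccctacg
Anln (chr9:22389177-22389306, minus strand): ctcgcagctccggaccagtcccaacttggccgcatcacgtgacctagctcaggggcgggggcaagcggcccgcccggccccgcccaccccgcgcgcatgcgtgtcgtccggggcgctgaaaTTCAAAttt
Cdc25b (chr2:131186848-131186977, plus strand): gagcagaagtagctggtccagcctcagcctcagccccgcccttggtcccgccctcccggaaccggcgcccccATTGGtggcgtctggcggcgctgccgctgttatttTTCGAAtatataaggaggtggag
Bub3 (chr7:131560270-131560399, plus strand): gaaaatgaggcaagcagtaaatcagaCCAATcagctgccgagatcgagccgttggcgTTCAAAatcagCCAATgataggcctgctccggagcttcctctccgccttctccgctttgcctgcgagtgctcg
Ccnb2, Cdca8 and Cdc20 hold both CCAAT boxes and TTTGAA, and in Cdca8 the TTTGAA overlaps an ATTGG. Cdc25b and Bub3 also hold both kinds of match, Anln holds TTCAAA alone, and none of these letters are in the windows of Nuf2 and Tacc3. Of 21 matched genes that fell, 14 held TTTGAA or TTCGAA (66.7%), and of 15 that did not pass the test, 11 did (73.3%). A match describes the sequence and not binding.

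Of the 44 mitosis genes, 26 fell in GFP-positive cells (59.1%), where 29.2% of all tested genes fell, and 18 did not pass the threshold of an adjusted p below 0.05 in edgeR. In that test 0 rose, against 26.1% of all tested genes. At an unadjusted p below 0.05, 1 gene was higher, Cdc25b, and 29 were lower, and DESeq2 and limma voom gave 0 higher. Cdc25b was called higher with the shared number as a block, after correction for transcript length and GC content, with both together, and without replicate 2 or GFP-negative replicate 2. The median log2 fold change (GFP-positive minus GFP-negative) was -0.43, against -0.01 over all tested genes, and it spanned -1.07 to 0.20. Only Ccnb2 passed a log2 fold change of -1, where 12.8% of all tested genes did, and the median of the 26 that fell was -0.54, against -0.81 over all genes that fell. A negative fold change was seen in 42 of the 44, against 50.5% of all tested genes, and 33 were lower in GFP-positive cells in all 3 same-numbered pairs, against 38.3%. In 32 of the 44 every GFP-positive library lay below every GFP-negative library, which held for 33.0% of all tested genes. Fewer dividing cells and less RNA per dividing cell cannot be told apart in bulk libraries.

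**Figure D1:**
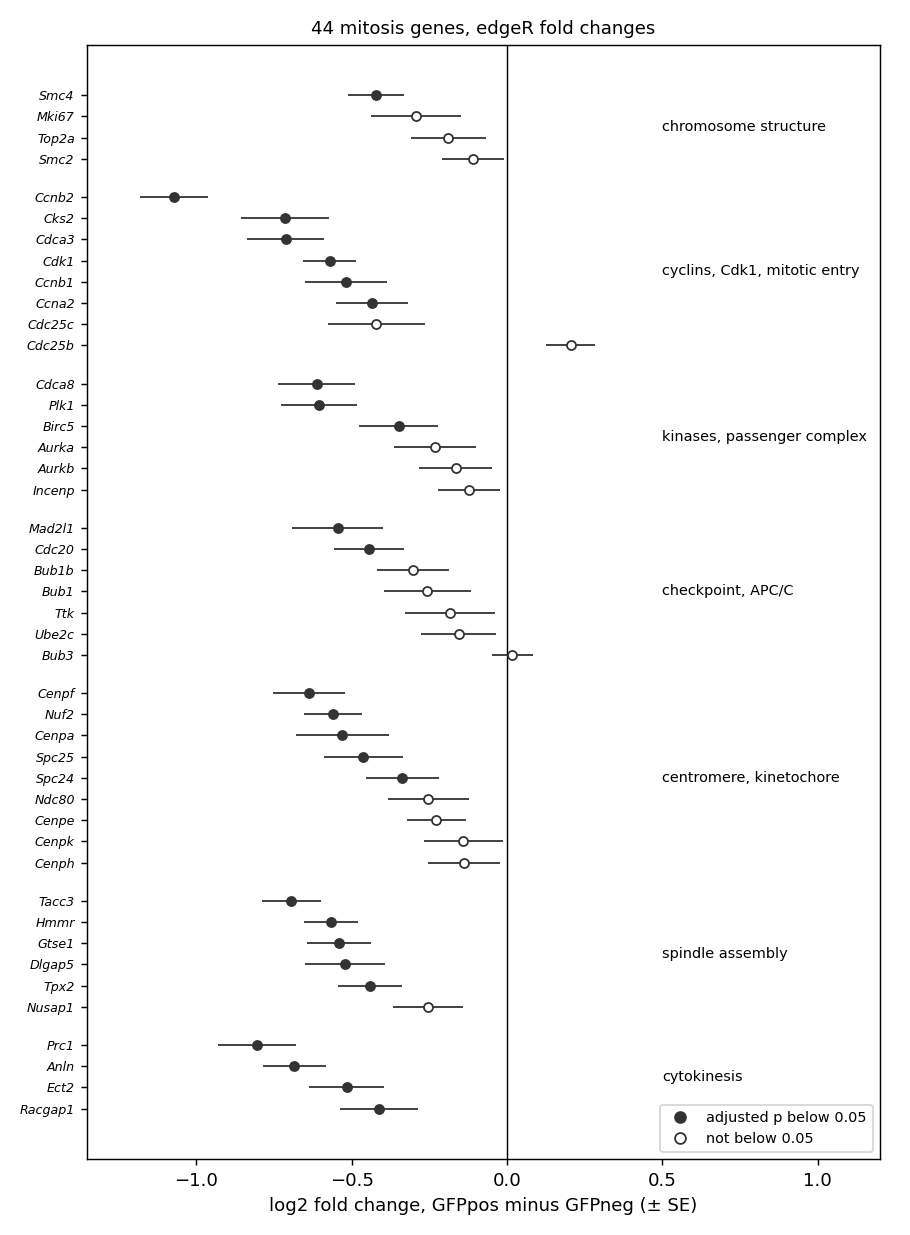
Log2 fold changes (GFP-positive minus GFP-negative, x axis, ± SE from edgeR) of the 44 genes by function, filled where the adjusted p was below 0.05. Of the 44, 42 lie below 0, and Cdc25b at 0.20 and Bub3 at 0.02 lie above it.

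The regulators of mitotic entry gave the largest single change. Of 8 genes, 6 fell and 0 rose, where 29.2% and 26.1% of all tested genes did. The median log2 fold change was -0.54, against -0.01 over all tested genes. Ccnb2 (Entrez 12442), a B-type cyclin that activates Cdk1, stood at 20.6, 21.4 and 19.3 CPM in the GFP-positive set, against 44.6, 47.9 and 36.2 CPM in the GFP-negative set. Each GFP-positive library was below each GFP-negative one, and the mean level was 2.1-fold lower (log2 fold change -1.07, SE 0.11, adjusted p = 1.01e-04). Ccnb1, the other main B-type cyclin, stood at 46.0, 55.8 and 55.1 CPM in the GFP-positive set, against 70.2, 90.3 and 64.3 CPM in the GFP-negative set, giving -0.52 on the log2 scale (SE 0.13, adjusted p = 0.0105). The Ccnb1 call was lost without replicate 1 (adjusted p = 0.0698). Transcripts of 4 annotated pseudogenes, Ccnb1-ps among them, match Ccnb1 at 96.6% to 99.2% identity, so reads of this gene may be shared with them. Ccna2, the A-type cyclin of S phase and mitotic entry, had a value of -0.43 (adjusted p = 0.0131). The Ccna2 call was lost without replicate 1 or GFP-positive replicate 1 (adjusted p up to 0.0749). Ccna2 averaged 82.1 ± 4.68 CPM in the GFP-positive set, against 111 ± 19.6 CPM in the GFP-negative set (SD, n = 3 each).

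Cdk1 (Entrez 12534), the kinase these cyclins activate, stood at 34.2, 34.0 and 31.5 CPM in the GFP-positive set and 47.2, 55.4 and 45.6 CPM in the GFP-negative set. It fell without overlap of the groups (-0.57, SE 0.09, adjusted p = 7.95e-04). Cks2, a small subunit that binds Cdk1, stood at 11.9, 10.3 and 13.8 CPM in the GFP-positive set, against 19.1, 22.6 and 17.2 CPM in the GFP-negative set (-0.71, adjusted p = 0.00311). Cks2 also has processed pseudogenes, 3 of them at 98.3% identity or more over 240 bases. Cdca3, an adaptor in the destruction of the Cdk1 inhibitor kinase Wee1, fell as well, at 25.3 ± 1.80 CPM in the GFP-positive set and 41.5 ± 7.18 CPM in the GFP-negative set (SD, n = 3 each; log2 fold change -0.71, adjusted p = 0.00162).

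Cdc25b and Cdc25c, the set's members of the Cdc25 phosphatases that free Cdk1 from inhibitory phosphates, did not pass the test. Cdc25a, outside the set, was called higher and is given below. Cdc25b (Entrez 12531) stood at 62.6, 70.9 and 65.9 CPM in the GFP-positive set and 55.4, 63.5 and 54.2 CPM in the GFP-negative set. The groups overlapped, while the GFP-positive library was the higher one in each of the 3 same-numbered pairs. Its log2 fold change was 0.20 (SE 0.08, adjusted p = 0.0586), and it passed as higher with the shared number as a block (adjusted p = 0.0202). Its exons overlap those of Spef1 on the other strand, which was itself higher by 0.73, and the part of such reads was not tested. Cdc25c stood at 12.1, 15.0 and 14.4 CPM in the GFP-positive set, against 17.7, 22.6 and 15.1 CPM in the GFP-negative set (-0.42, SE 0.16, adjusted p = 0.0509, and 0.0196 with the block).

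**Figure D2:**
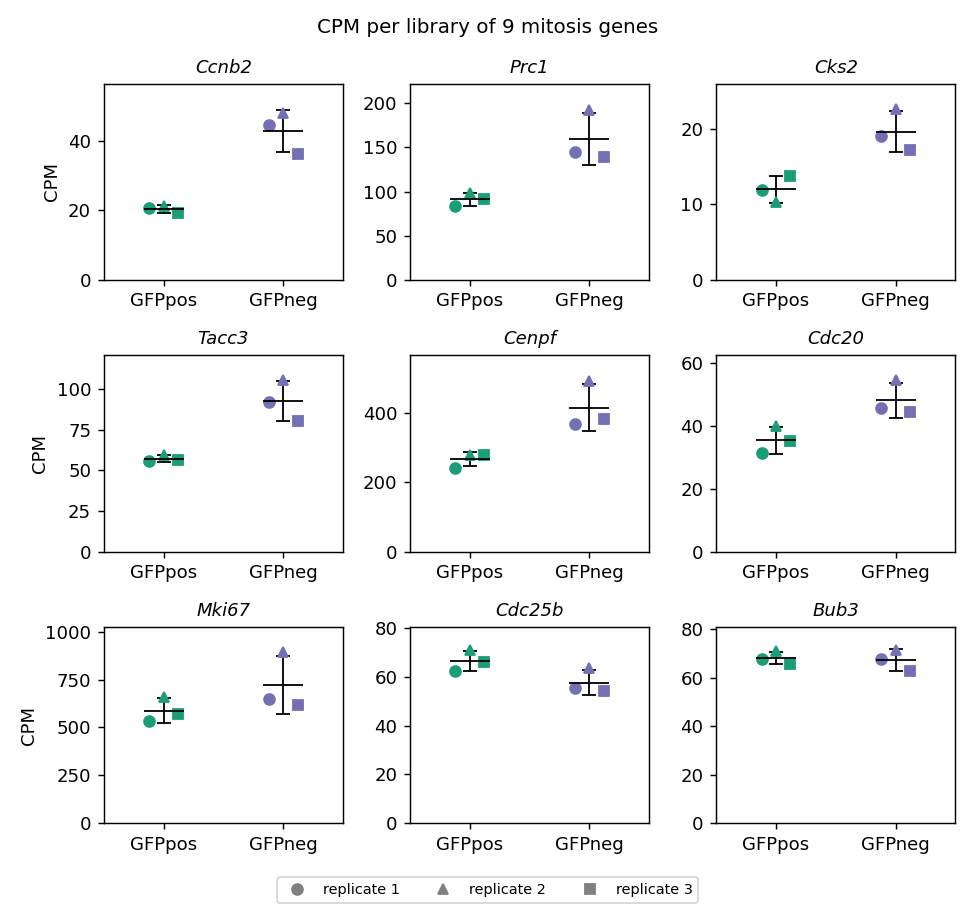
CPM (y axis, from 0) of 9 of the genes in each library, GFP-positive left and GFP-negative right, with the mean (bar) and SD (whiskers), n = 3 each. Ccnb2, Prc1, Cks2, Tacc3, Cenpf and Cdc20 separate the groups, while Mki67, Bub3 and Cdc25b overlap. Cdc25b has a GFP-positive mean of 66.5 CPM, against a GFP-negative mean of 57.7 CPM (adjusted p = 0.0586 in edgeR).

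Among the mitotic kinases and the chromosomal passenger complex, 3 of 6 genes fell and 0 rose, where 29.2% and 26.1% of all tested genes did. Plk1, a kinase that acts from entry to cytokinesis, stood at 30.2, 37.0 and 34.98 CPM in the GFP-positive set and 47.9, 61.4 and 46.2 CPM in the GFP-negative set. It fell by 0.60 on the log2 scale (SE 0.12, adjusted p = 0.00363). Aurka, the Aurora kinase of centrosomes and spindle poles, stood at 19.5 ± 0.53 CPM in the GFP-positive set and 22.9 ± 4.36 CPM in the GFP-negative set (SD, n = 3 each; adjusted p = 0.169). The passenger complex moves from centromeres to the central spindle and has 4 subunits, all of them in the set. Cdca8 (borealin) stood at 33.2, 42.9 and 37.1 CPM in the GFP-positive set, against 56.6, 66.3 and 50.3 CPM in the GFP-negative set, and fell without overlap (-0.61, SE 0.12, adjusted p = 0.00350). Birc5 (survivin) had a value of -0.35 (SE 0.13, adjusted p = 0.0465). Of 9 fits with 1 library or 1 numbered pair removed, 8 ended the Birc5 call, and its adjusted p reached 0.172. The kinase subunit Aurkb and the scaffold Incenp did not pass, at -0.16 and -0.12 (adjusted p = 0.268 and 0.330). Incenp stood at 95.8, 118 and 106 CPM in the GFP-positive set and 118, 128 and 102 CPM in the GFP-negative set, which overlapped. Birc5 averaged 28.6 ± 2.94 CPM in the GFP-positive set, against 36.4 ± 5.92 CPM in the GFP-negative set (SD, n = 3 each). Aurkb averaged 20.1 ± 1.10 CPM in the GFP-positive set, against 22.5 ± 3.45 CPM in the GFP-negative set (SD, n = 3 each). Aurkb overlapped between the groups and Birc5 did not. Whether the subunits differ from each other was not tested.

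Of the spindle checkpoint and APC/C genes 2 of 7 fell (28.6%), close to the 29.2% of all tested genes. In this group 0 rose, against 26.1%, and 6 of the 7 had a negative fold change, against 50.5%. Cdc20 (Entrez 107995), the activator of the APC/C and target of the checkpoint, stood at 31.2, 39.9 and 35.1 CPM in the GFP-positive set and 45.7, 54.6 and 44.3 CPM in the GFP-negative set. The groups did not overlap (-0.44, SE 0.11, adjusted p = 0.0103). The call ended without replicate 1 or replicate 3 (adjusted p up to 0.0657), and after correction for transcript length and GC content (0.0527). Its exons share 53 bases with Elovl1 on the other strand, which was also lower, at -0.71.

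Mad2l1, the checkpoint protein that sequesters Cdc20, stood at 19.8, 18.9 and 20.5 CPM in the GFP-positive set and 25.9, 36.2 and 24.3 CPM in the GFP-negative set (-0.54, SE 0.15, adjusted p = 0.0134). It lost the call without replicate 1 and without GFP-positive replicate 2 (adjusted p up to 0.0588). Its partner Bub3, which recruits checkpoint kinases to kinetochores and also works outside mitosis, stood at 67.6, 70.9 and 65.7 CPM in the GFP-positive set and 67.6, 71.5 and 62.6 CPM in the GFP-negative set. Bub3 overlapped fully, at 0.02 on the log2 scale (SE 0.07, adjusted p = 0.839). The checkpoint kinases Bub1, Bub1b and Ttk had values of -0.26, -0.30 and -0.18 and did not pass (adjusted p = 0.153, 0.0553 and 0.314), although Bub1b passed with the block (0.0158). Bub1 averaged 28.5 ± 0.731 CPM in the GFP-positive set, against 34.1 ± 7.46 CPM in the GFP-negative set (SD, n = 3 each). Bub1b averaged 54.4 ± 4.56 CPM in the GFP-positive set, against 66.99 ± 10.6 CPM in the GFP-negative set (SD, n = 3 each). Ttk averaged 20.2 ± 2.36 CPM in the GFP-positive set, against 22.97 ± 4.29 CPM in the GFP-negative set (SD, n = 3 each). Of these kinases only Ttk had overlapping groups. Ube2c, the ubiquitin-conjugating enzyme of the APC/C, stood at 54.5, 68.7 and 68.1 CPM in the GFP-positive set, against 67.8, 82.2 and 63.2 CPM in the GFP-negative set, with overlap (-0.16, adjusted p = 0.307).

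At the centromere and kinetochore 5 of 9 genes fell (55.6%), against 29.2% of all tested genes. The log2 fold changes of all 9 lay between -0.64 and -0.14. Cenpf (Entrez 108000), a large outer kinetochore protein made late in the cycle, stood at 243, 279 and 280 CPM in the GFP-positive set and 369, 493 and 383 CPM in the GFP-negative set. The groups were apart (-0.64, SE 0.12, adjusted p = 0.00201). Cenpa, the histone H3 variant of centromeres, had a value of -0.53 (adjusted p = 0.0163). That call was lost without replicate 1, GFP-positive replicate 1 or GFP-positive replicate 2 (adjusted p up to 0.0724). Cenpa averaged 26.2 ± 0.623 CPM in the GFP-positive set, against 37.9 ± 8.95 CPM in the GFP-negative set (SD, n = 3 each). The motor Cenpe stood at 156, 172 and 170 CPM in the GFP-positive set, against 184, 224 and 176 CPM in the GFP-negative set (-0.23, SE 0.09, adjusted p = 0.0716, and 0.0310 with the block). Cenpe also passed after correction for transcript length and GC content (0.00364).

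The Ndc80 complex, which binds microtubules at the outer kinetochore, is complete in the set. Its subunit Nuf2 (Entrez 66977) stood at 40.8, 47.8 and 46.7 CPM in the GFP-positive set and 64.3, 74.1 and 61.0 CPM in the GFP-negative set. Nuf2 fell by 0.56 on the log2 scale (SE 0.09, adjusted p = 0.00130). Spc25 and Spc24, which anchor the complex, had values of -0.46 and -0.34 (adjusted p = 0.0151 and 0.0384). Spc25 lost its call without GFP-positive replicate 1 (adjusted p = 0.0627), and Spc24 lost it in 6 of the 9 fits with libraries removed, where its adjusted p reached 0.137. Ndc80 itself stood at 45.9, 46.8 and 49.2 CPM in the GFP-positive set, against 56.2, 67.5 and 45.3 CPM in the GFP-negative set, where replicate 3 was below all GFP-positive libraries (-0.25, SE 0.13, adjusted p = 0.132). Cenph and Cenpk, subunits of the constitutive centromere network that stays in place through the cycle, had values of -0.14 each (adjusted p = 0.341 and 0.380). Spc25 averaged 34.8 ± 4.23 CPM in the GFP-positive set, against 47.98 ± 7.48 CPM in the GFP-negative set (SD, n = 3 each). Spc24 averaged 21.7 ± 1.5 CPM in the GFP-positive set, against 27.4 ± 4.15 CPM in the GFP-negative set (SD, n = 3 each). In both of them every GFP-positive library was below every GFP-negative library. Cenph averaged 7.87 ± 0.134 CPM in the GFP-positive set, against 8.66 ± 0.866 CPM in the GFP-negative set (SD, n = 3 each). Cenpk averaged 9.90 ± 0.226 CPM in the GFP-positive set, with each of its libraries between 9.64 and 10.06 CPM in the GFP-positive set, against 10.4, 12.8 and 9.53 CPM in the GFP-negative set.

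Spindle assembly genes fell in 5 of 6 cases (83.3%, against 29.2% of all tested genes), with a median of -0.53. Tacc3 (Entrez 21335), which stabilises bundled spindle fibres, stood at 55.8, 59.5 and 56.2 CPM in the GFP-positive set and 92.1, 105 and 80.2 CPM in the GFP-negative set. The groups were well apart (-0.69, SE 0.10, adjusted p = 4.78e-04). Tacc3 exons overlap those of Tmem129 on the other strand, which was also lower, at -0.57, with 4119 counts in all against 15622 for Tacc3. Hmmr, a spindle pole protein, stood at 64.8, 66.5 and 70.6 CPM in the GFP-positive set and 97.2, 112 and 89.4 CPM in the GFP-negative set (-0.57, adjusted p = 8.41e-04). Tpx2, which activates Aurora A on spindle microtubules, had a value of -0.44 (adjusted p = 0.00711), and the microtubule-binding proteins Gtse1 and Dlgap5 had -0.54 and -0.52 (adjusted p = 0.00255 and 0.00908). Dlgap5 lost its call without replicate 1 (0.0678). Tpx2 averaged 146 ± 14.8 CPM in the GFP-positive set, against 198 ± 24.3 CPM in the GFP-negative set (SD, n = 3 each). Gtse1 averaged 17.9 ± 1.55 CPM in the GFP-positive set, against 26.01 ± 2.41 CPM in the GFP-negative set (SD, n = 3 each). Dlgap5 averaged 32.6 ± 3.35 CPM in the GFP-positive set, against 46.8 ± 8.01 CPM in the GFP-negative set (SD, n = 3 each). The groups were apart for all 3 genes. Nusap1, a microtubule-bundling protein, stood at 55.3, 57.4 and 58.8 CPM in the GFP-positive set, against 62.4, 81.7 and 60.4 CPM in the GFP-negative set, and did not pass (-0.25, adjusted p = 0.0868, and 0.0497 with the block).

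All 4 cytokinesis genes fell, against 29.2% of all tested genes. Prc1 (Entrez 233406), which cross-links the antiparallel microtubules of the central spindle, stood at 83.2, 98.1 and 91.9 CPM in the GFP-positive set and 145, 193 and 139 CPM in the GFP-negative set. This was a 1.75-fold difference without overlap (-0.81, SE 0.13, adjusted p = 9.13e-04). Anln (Entrez 68743), an actin-binding scaffold of the contractile ring, stood at 40.9, 45.8 and 42.9 CPM in the GFP-positive set and 63.6, 80.6 and 64.2 CPM in the GFP-negative set (-0.68, SE 0.10, adjusted p = 6.81e-04). Anln is also made by myelinating oligodendrocytes. Ect2, the exchange factor that activates RhoA at the cleavage plane, had a value of -0.51 (adjusted p = 0.00710, and 0.0577 without replicate 1). Ect2 averaged 44.97 ± 2.40 CPM in the GFP-positive set, against 64.3 ± 11.6 CPM in the GFP-negative set (SD, n = 3 each). Racgap1, which joins Ect2 to the central spindle, stood at 94.0, 106 and 98.8 CPM in the GFP-positive set, against 126, 161 and 111 CPM in the GFP-negative set (-0.41, SE 0.13, adjusted p = 0.0233). The Racgap1 call was lost without replicate 1, GFP-positive replicate 1 or GFP-positive replicate 3 (adjusted p up to 0.129).

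Of the chromosome proteins and common proliferation marks 1 of 4 fell, not above the 29.2% of all tested genes. In this group 0 rose, against 26.1%, and all 4 had a negative fold change, against 50.5%. Mki67, the gene of the proliferation antigen Ki-67, stood at 532, 661 and 572 CPM in the GFP-positive set and 648, 896 and 619 CPM in the GFP-negative set. The groups overlapped, and the value of -0.29 did not pass (SE 0.15, adjusted p = 0.121). It passed with the block (0.0122) and after the correction for transcript length and GC content (0.0177). Top2a, the topoisomerase that untangles sister chromatids, had 371 ± 23.9 CPM in the GFP-positive set and 422 ± 75.7 CPM in the GFP-negative set (SD, n = 3 each; -0.19, adjusted p = 0.215). The condensin ATPases Smc4 and Smc2 form a heterodimer. Smc4 stood at 151, 161 and 157 CPM in the GFP-positive set and 199, 240 and 187 CPM in the GFP-negative set (-0.42, SE 0.09, adjusted p = 0.00491). Smc2 stood at 102, 112 and 115 CPM in the GFP-positive set and 113, 137 and 105 CPM in the GFP-negative set and did not pass (-0.11, SE 0.10, adjusted p = 0.381). After the correction for transcript length and GC content Smc2 passed as lower, at -0.25 (adjusted p = 0.0329, and 0.0157 with the block as well), and Top2a passed with the correction and block together (0.0238).

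GFP-negative replicate 2 held the highest level of 43 of the 44 genes, where it held the highest level of 14.4% of all tested genes, and the exception was Cdc25b. GFP-positive replicate 1 held the lowest level of 36, against 16.9% of all tested genes. Both libraries of replicate 2 were the highest of their group in summed CPM. In pairs 1, 2 and 3 the median log2 ratio of GFP-positive to GFP-negative was -0.42, -0.58 and -0.22. In pair 3, 11 of the 44 genes were higher in the GFP-positive library, against 2 in pair 1 and 1 in pair 2. Without GFP-negative replicate 2 the median log2 fold change was -0.29, with 24 genes lower and 1 higher (Cdc25b). Without replicate 1, 16 genes were lower, and with the block 31 were lower and 1 higher.

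Some of these values may include reads of other genes. Exons of Ccna2, Cdca8, Cenpk, Nusap1 and Prc1 overlap those of Exosc9, 9930104L06Rik, Ppwd1, Oip5 and Rccd1 on the other strand, and none of these 5 neighbours passed the test. Ppwd1 had more counts than Cenpk, at 5984 against 2216 over all libraries. Mad2l1, Mki67, Ndc80 and Racgap1 each share at least 200 bases at 95% identity or more with an annotated pseudogene or other transcript. The part of such reads was not tested.

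**Figure D3:**
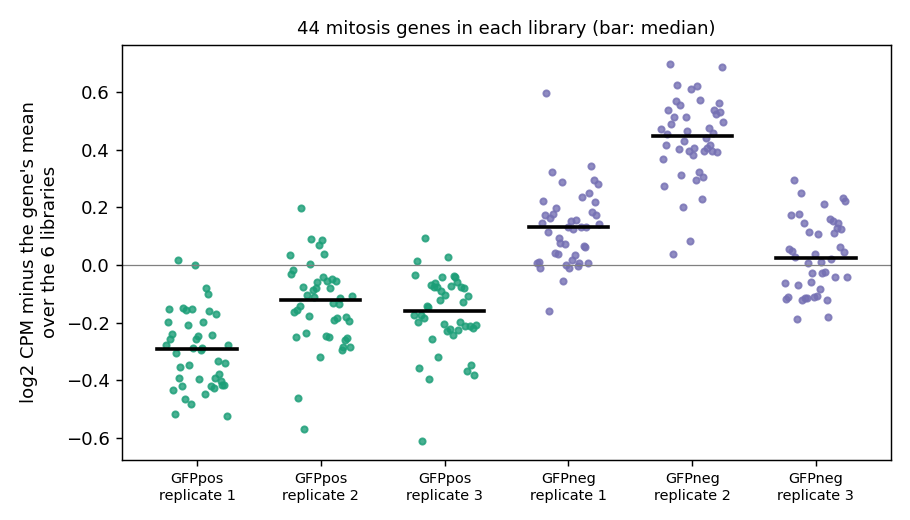
Log2 CPM of each of the 44 genes minus that gene's mean over the 6 libraries (y axis), by library, with the median as a bar. The medians are -0.29, -0.12 and -0.16 in GFP-positive and 0.13, 0.45 and 0.02 in GFP-negative libraries.

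The sum of the 44 genes was 3096, 3550 and 3404 CPM in the GFP-positive set, or 0.308%, 0.356% and 0.339% of their counts. In GFP-negative libraries it was 4067, 5152 and 3845 CPM, or 0.408%, 0.519% and 0.382%. The groups did not overlap. Abundant genes weigh most in such a sum. Of it, the 4 chromosome proteins and proliferation marks made up 1127, 1318 and 1228 CPM in the GFP-positive set. In the GFP-negative set they made up 1357, 1781 and 1274 CPM, and that part overlapped. The sum of 35 S phase genes overlapped, at 1660, 1736 and 1728 CPM in the GFP-positive set and 1705, 1864 and 1493 CPM in the GFP-negative set. The ratio of the mitosis sum to the S phase sum was 1.865, 2.045 and 1.97 in GFP-positive and 2.385, 2.764 and 2.575 in GFP-negative libraries, and did not overlap.

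**Figure D4:**
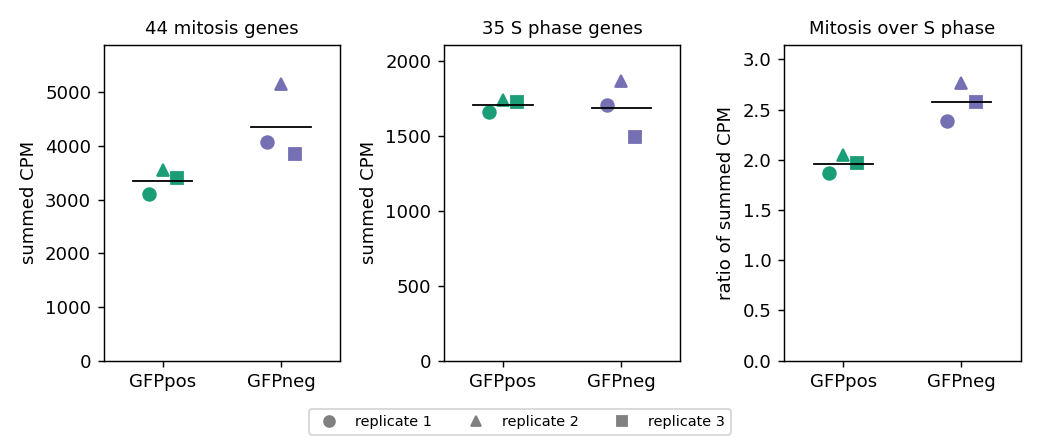
Summed CPM of the 44 mitosis genes, summed CPM of 35 S phase genes, and the ratio of the sums (y axes, from 0), by library, with the group mean as a bar. The mitosis sum and the ratio separate GFP-positive from GFP-negative libraries, while the S phase sum does not.

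Of those 35 S phase genes, 6 were lower (17.1%) and 2 higher (5.71%), both below the 29.2% and 26.1% of all tested genes, and the median log2 fold change was 0.01. Rfc2, a subunit of the clamp loader, stood at 29.5, 30.2 and 29.1 CPM in the GFP-positive set and 38.9, 39.5 and 38.0 CPM in the GFP-negative set (-0.39, adjusted p = 9.13e-04). The higher genes were Nasp, a histone chaperone, at 0.36 and Mcm7, a helicase subunit, at 0.37 (adjusted p = 0.00180 and 0.0130). Nasp stood at 253, 267 and 269.7 CPM in the GFP-positive set, against 202, 221 and 192 CPM in the GFP-negative set. Mcm7 stood at 153, 154 and 160.1 CPM in the GFP-positive set, against 120.3, 138 and 102 CPM in the GFP-negative set. The lower count was 1 without replicate 1, 2 without GFP-positive replicate 1, 3 without GFP-positive replicate 3 or GFP-negative replicate 1, and 9 without GFP-negative replicate 3. The higher count was 1 without replicate 1 or replicate 3, and 5 without GFP-negative replicate 2. With libraries removed, 2951 to 4468 of all tested genes were lower and 2450 to 4169 higher.

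Of another 114 mitosis genes, in 7 lists, 43 were lower (37.7%) and 10 higher (8.77%), where 29.2% and 26.1% of all tested genes were, and the median was -0.17. Without replicate 1, 22 were lower and 5 higher, and without GFP-positive replicate 1, 27 were lower and 6 higher. The higher count was 3 without replicate 3 and 17 without GFP-negative replicate 2. The list of other spindle, centrosome and cytokinesis genes had 14 of 17 lower (82.35%, against 29.2%) and 0 higher (against 26.1%). In it Knstrn, which encodes a kinetochore and spindle protein, stood at 55.1, 58.8 and 57.2 CPM in the GFP-positive set and 106, 119 and 96.9 CPM in the GFP-negative set (-0.91, SE 0.08, adjusted p = 4.51e-05). Of 12 mitotic kinesins 4 were lower (33.3%), near the 29.2% of all tested genes, and 0 were higher, against 26.1%. A negative fold change was seen in 11 of the 12, against 50.5% of all tested genes. Kif18a, a motor that aligns chromosomes, was among the lower ones at -0.69 (adjusted p = 0.00117). Kif18a stood at 26.5, 28.3 and 26.8 CPM in the GFP-positive set, against 43.1, 50.9 and 37.1 CPM in the GFP-negative set.

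Of 15 condensin, cohesin and separase genes 6 were lower and 1 higher, where 29.2% and 26.1% of all tested genes were. Pttg1, which encodes securin, the separase inhibitor destroyed at anaphase, had few counts, at 1.31, 0.684 and 0.761 CPM in the GFP-positive set and 4.73, 5.99 and 8.29 CPM in the GFP-negative set. It was 6.93-fold lower (log2 fold change -2.79, SE 0.32, adjusted p = 1.69e-04), a larger fold than that of any of the 44 genes. Near-identical copies of Pttg1 were not looked for. The higher gene was Smc3, a cohesin ATPase also needed outside mitosis, at 0.24 (adjusted p = 0.00491). Smc3 stood at 327, 337 and 334 CPM in the GFP-positive set, against 286, 289.7 and 269 CPM in the GFP-negative set.

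Of 29 further centromere and kinetochore genes 8 were lower (27.6%), near the 29.2% of all tested genes. Another 3 were higher (10.3%), against 26.1%, and 21 of the 29 had a negative fold change, against 50.5%. Pmf1, a subunit of the Mis12 complex, had a value of -0.69 (adjusted p = 0.00154), while Mad1l1, Cenpc1 and Zw10 were higher by 0.27, 0.20 and 0.21. Pmf1 stood at 14.8, 15.8 and 13.7 CPM in the GFP-positive set, against 24.9, 26.6 and 20.1 CPM in the GFP-negative set. Mad1l1 encodes a checkpoint protein, Cenpc1 an inner kinetochore protein, and Zw10 a subunit that recruits dynein. Mad1l1 stood at 63.2, 66.9 and 61.9 CPM in the GFP-positive set, against 53.7, 54.6 and 51.4 CPM in the GFP-negative set. Cenpc1 stood at 104, 102 and 101 CPM in the GFP-positive set, against 85.7, 96.6 and 84.9 CPM in the GFP-negative set. Zw10 stood at 36.01, 35.8 and 32.7 CPM in the GFP-positive set, against 28.2, 31.7 and 30.8 CPM in the GFP-negative set. Of 16 APC/C genes 3 were lower and 3 higher (18.75% each), both below the 29.2% and 26.1% of all tested genes. Anapc15, Anapc11 and Cdc27 were lower, at -0.41, -0.34 and -0.16. Cdc26 was higher by 0.44 (adjusted p = 5.53e-04), and Cdc23 and Anapc7 were higher by 0.26 and 0.20. Cdc26 stood at 44.2, 45.6 and 48.5 CPM in the GFP-positive set, against 34.3, 33.8 and 33.96 CPM in the GFP-negative set. Of 12 further entry and exit regulators 5 were lower (41.7%) and 1 higher (8.33%), where 29.2% and 26.1% of all tested genes were. Pbk, a mitotic kinase, had a value of -0.72 (adjusted p = 0.00126), and the phosphatase Cdc25a, which also acts at the start of S phase, was higher by 0.36 (adjusted p = 0.0155). Pbk stood at 29.7, 30.97 and 29.5 CPM in the GFP-positive set, against 47.4, 59.5 and 42.1 CPM in the GFP-negative set. Cdc25a stood at 25.3, 25.1 and 24.8 CPM in the GFP-positive set, against 18.8, 22.2 and 17.4 CPM in the GFP-negative set.

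Among 13 regulators of the mitotic gene programme, 3 were lower (23.1%) and 2 higher (15.4%), both below the 29.2% and 26.1% of all tested genes. E2f5, a repressor-type E2F that can enter the DREAM complex, stood at 17.7, 18.2 and 19.3 CPM in the GFP-positive set and 33.5, 33.3 and 33.5 CPM in the GFP-negative set (-0.86, SE 0.07, adjusted p = 3.29e-05). Tfdp1, the dimer partner of E2F proteins, and Lin9, a MuvB subunit, were higher by 0.36 and 0.27 (adjusted p = 0.00377 and 0.0359). Lin52, another MuvB subunit, was lower, at -0.60 (adjusted p = 0.00225). The MuvB subunits Lin37 and Lin54 did not pass, at 0.25 and -0.01. Foxm1 and Mybl2, the gene of B-Myb, did not pass either, at -0.25 and 0.13. Tfdp1 stood at 163, 164 and 152 CPM in the GFP-positive set, against 127, 135 and 112 CPM in the GFP-negative set. Lin9 stood at 24.9, 24.5 and 24.99 CPM in the GFP-positive set, against 20.2, 22.9 and 18.5 CPM in the GFP-negative set.

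**Figure D5:**
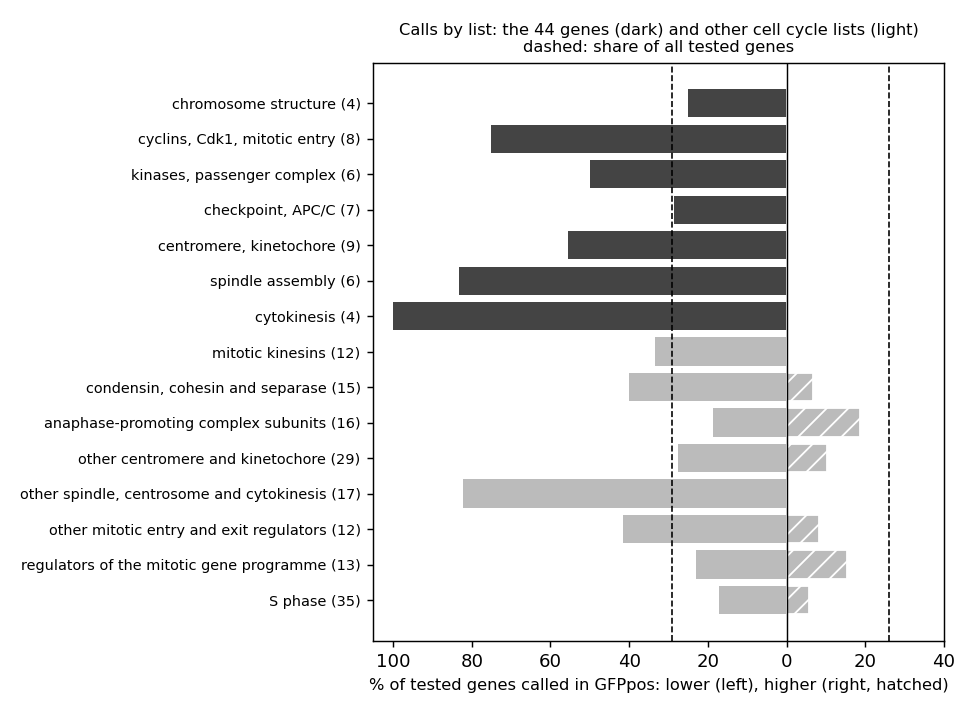
Share of tested genes (x axis, %) that were lower (left) or higher (right, hatched) in GFP-positive cells, for the functional groups of the 44 genes (dark) and the other lists (light), with the number tested in brackets. Dashed lines mark 29.2% lower and 26.1% higher over all tested genes, and the cytokinesis group reaches 100% lower.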

How the data were processed

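Raw read counts for each gene and library were deposited as a single table without normalization, per the file headers. The kit was SMART-Seq Stranded, per the labels' protocols. The submitters' processing notes list the build mm39, featureCounts 2.0.0, SAMtools 1.9 and TopHat2 2.1.1. Which annotation and strand setting were used, and how multiply mapped and duplicate reads were treated, is not stated in the material used here, so overlapping genes and near-identical copies may share reads. Precision from depth covers counting error only.

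The counts were tested in edgeR 4.0.16 (R 4.3.3) after TMM scaling and filterByExpr, by the quasi-likelihood F test, with p-values adjusted by the Benjamini-Hochberg method over all 14554 tested genes. The procedure was tested on simulated data. CPM use TMM, and each SE is the absolute log2 fold change over the root of F. Promoters come from RefSeq, and transcripts, overlaps and near-identical copies from GENCODE M21 (both GRCm38, used for sequence only).

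No label ties the libraries to separate animals or cultures. The p-values therefore reflect only how far these samples scatter, and that scatter may be technical. Same-numbered libraries deviated together from their group means (r = 0.218, 0.355 and 0.159 across genes, all above 0.1), while differently numbered ones gave -0.306 to 0.128, the highest being GFP-positive replicate 3 with GFP-negative replicate 1. By the limit of 0.1 the shared numbers in the titles were taken to pair the samples, although that differently numbered pair passed the limit too. Deviations from a group mean cancel out for each gene, so negative values for differently numbered libraries are partly built in. The pairing therefore remains an assumption. The test has no block, and blocked values are printed where they change the call of one of the 44 genes. No 2 libraries of a group agreed within sampling noise (chi-square of at least 9.83 per degree of freedom).

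The members and lists were chosen with earlier results of these data known. Values per library are given for, in each functional group, the gene with the smallest p, the largest fold change among those that passed and the largest p, and in other lists for the gene with the smallest p and up to 3 called against the list's majority. Mki67, Top2a, Cdk1 and further members, and the genes overlapping them, were added after their values were seen. So were Lin52, Lin37, Lin54, Foxm1 and Mybl2. Alternatives were RLE, upper-quartile and library-total scaling, 2 other count filters, DESeq2 1.42.0, limma 3.58.1 voom, the replicate block, correction of each library for transcript length and GC content (with and without the block), and leaving out each library or number.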

Additional observations from a re-analysis of the deposited data

How the results depend on the processing

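The counts of calls, the median and the values of the 44 genes were recomputed under 10 other settings and 9 fits with 1 library or 1 numbered pair removed. Summed CPM, the ratio to S phase, marker lists and single genes of other lists were not. Of the 26 mitosis genes that fell, 23 kept their call under all 10 settings, and 15 under all 19 fits: Smc4, Cdk1, Ccnb2, Cks2, Cdca3, Plk1, Cdca8, Cenpf, Nuf2, Tpx2, Hmmr, Tacc3, Gtse1, Anln and Prc1. The number lower was 25 to 33 under the settings, 31 with the replicate block, and 16 to 31 with libraries removed. The number higher was 1 with the replicate block, with the length and GC trend removed, and with both together (Cdc25b each time), and 0 to 1 with libraries removed. The median log2 fold change was -0.45 to -0.40 under the settings, -0.42 with the replicate block, and -0.52 to -0.29 with libraries removed. Over all genes 2450 to 4169 were higher and 2951 to 4468 lower with libraries removed. For other mitosis genes these ranges were 3 to 17 higher and 22 to 54 lower, and for S phase genes 1 to 5 higher and 1 to 9 lower (counts for these 2 lists were added after seeing the data). The blocked fit gave calls to 6 further members (Mki67, Cdc25b, Cdc25c, Bub1b, Cenpe and Nusap1) and ended none, and it gave 47 lower and 10 higher among other mitosis genes and 7 lower and 2 higher among S phase genes. Birc5 lost its call with RLE scaling, and Birc5, Cdc20 and Spc24 with the length and GC trend removed, where Mki67, Cdc25b, Smc2 and Cenpe gained one. Top2a and Bub1 gained one with that correction and the block together (adjusted p = 0.0238 and 0.0357). The causes were not tested.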
